A study of Mus musculus with 6 samples.

Results

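The kinesin motor family was compared between whole mouse bone marrow and marrow cells sorted for green fluorescent protein (GFP). Members were taken by gene symbol, as every gene named Kif or Kifc with a number in the array's annotation, which gave 40 of the 18193 named genes measured and 103 of the 34945 probe sets with 1 gene symbol. They were grouped by known role into 13 mitotic kinesins, 15 transport kinesins and 12 others. Both groups came from hemizygous Tg(Ren1-GFP)2Kwg mice, 3 to 6 months old and of both sexes, in which renin sequences drive GFP. Femoral marrow of 4 to 5 mice was pooled for each of 3 sorts. A portion of every pool stayed unsorted (presort, n = 3), and the remainder passed a scatter gate against erythrocytes and debris, a single-cell gate and a GFP gate that let in 0.1% of a transgene-negative sample (sorted, n = 3). The presort control thus carried the transgene too and had passed none of the gates, so gating for single cells without erythrocytes cannot be told apart from selection for GFP. Each sample is a pool of mice, and animals within a pool were not measured separately.

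Kinesins are motor proteins that use ATP to move along microtubules or to take their ends apart. One set, made mainly by dividing cells, builds the spindle, moves chromosomes and completes cytokinesis. The transport kinesins carry organelles, vesicles and ciliary cargo in dividing and resting cells alike. Dividing cells of marrow include erythroblasts, granulocyte precursors and early B lineage cells.

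Each sample was read on 1 Affymetrix 3' array, and values are RMA intensities on a log2 scale that ran from 3.28 to 15.23. A gene was called when limma's Benjamini-Hochberg adjusted p over all 18193 genes was under 0.05. In all, 2629 genes were called higher and 3296 lower in sorted samples. With every array centred on its median these counts were 5162 and 2576, because centring moved the median difference of all genes from -0.0021 to 0.23. For beta-actin (Actb) the log2 signal at the 3' end less that at the 5' end was 0.81 to 1.11 in presort samples and 3.17, 1.54 and 1.43 in sorted replicates 1, 2 and 3, with a two-sided exact permutation p of 0.1, the smallest that 3 against 3 allow. Sorted replicate 1 thus stood apart in this measure of RNA quality.

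The mitotic kinesins were lower in sorted samples. Of the 13 measured, 10 fell and 0 rose, whereas 18.1% of all genes were called lower and 14.5% higher (32.6% in either direction). Their median difference was -2.09 on the log2 scale (4.25-fold), while that of all genes was -0.0021. For 11 of the 13, every sorted array lay below every presort array, which held for 23.6% of all genes, and for 1, Kif2b, every sorted array lay above (20.9% of all genes). Called differences ran from -1.08 for Kif20b to -3.18 for Kif20a. In bulk samples such as these, fewer cells of a type and less RNA per cell cannot be told apart.

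**Figure D1:**
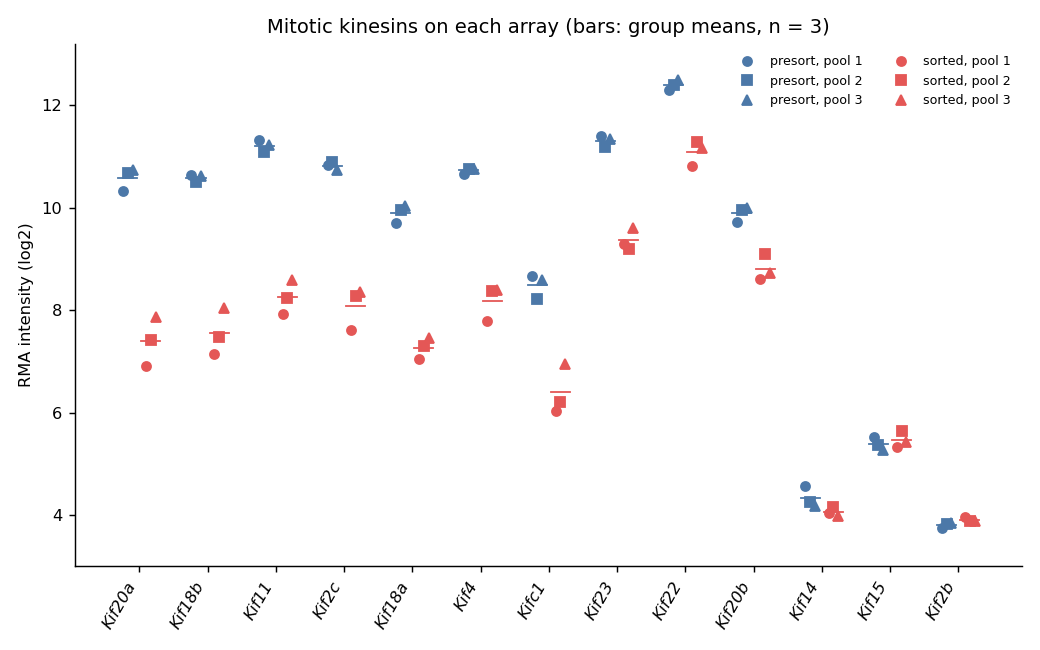
RMA intensity (log2) of the 13 mitotic kinesins on each array; symbols mark the pool, blue is presort, red is sorted, and horizontal bars are group means (n = 3). The 10 kinesins from Kif20a to Kif20b have all red points below all blue ones, while Kif14, Kif15 and Kif2b stay between 3.74 and 5.65.

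Among motors that build the bipolar spindle, Kif11 and Kifc1 fell and Kif15 was not called. Kif11, the motor that slides antiparallel spindle microtubules apart, measured 11.32, 11.10 and 11.23 in presort replicates 1, 2 and 3 and 7.93, 8.25 and 8.59 in sorted ones. All 3 sorted arrays lay more than 2 units below all presort arrays, and the difference was -2.96 ± 0.17 (SE, 7.77-fold, limma adjusted p = 2.25e-05). Kifc1, a minus-end motor that gathers spindle poles, measured 8.67, 8.22 and 8.58 before and 6.03, 6.22 and 6.95 after the sort. The groups did not overlap, and Kifc1 fell by 2.09 ± 0.25 (SE, 4.25-fold, limma adjusted p = 0.000378). Its probe set can match several transcripts and the near-identical Kifc5b is a separate gene, so this value is uncertain. Kif15, which can hold the spindle open beside Kif11, measured 5.52, 5.36 and 5.27 before and 5.34, 5.65 and 5.43 after. Its groups overlapped, and the difference of 0.09 ± 0.13 (SE; limma adjusted p = 0.681) was not called.

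Motors that bind chromosomes or set microtubule length at them fell as well, except Kif2b. Kif4, a chromokinesin of the chromosome arms, measured 10.67, 10.77 and 10.76 before and 7.80, 8.37 and 8.40 after the sort. Presort arrays of Kif4 had an SD of 0.05 and all lay above the sorted ones, at a difference of -2.54 ± 0.17 (SE, 5.82-fold, limma adjusted p = 3.01e-05). Kif22, the chromokinesin also called Kid, measured 12.31, 12.41 and 12.50 before and 10.82, 11.28 and 11.18 after. It had the second smallest of the 10 called mitotic differences, -1.31 ± 0.14 (SE, 2.49-fold, limma adjusted p = 0.000274), read by a probe set that can match several transcripts, and its other probe sets gave -2.83 and -1.53. Kif18a, which damps the movements of chromosomes at the metaphase plate, measured 9.71, 9.96 and 10.04 before and 7.05, 7.31 and 7.45 after. Its 3 pools lay close together, at -2.66, -2.65 and -2.59, with a mean of -2.63 ± 0.15 (SE, 6.19-fold, limma adjusted p = 2.01e-05).

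Kif18b, which shortens astral microtubules together with Kif2c, measured 10.65, 10.50 and 10.62 before and 7.14, 7.48 and 8.04 after. Sorted replicate 1 was lowest and replicate 3 highest, and Kif18b fell by 3.03 ± 0.21 (SE, 8.18-fold, limma adjusted p = 3.47e-05). Kif2c, the microtubule depolymerase of centromeres, measured 10.85, 10.89 and 10.73 before and 7.62, 8.28 and 8.36 after. The groups did not overlap, and Kif2c differed by -2.74 ± 0.20 (SE, 6.66-fold, limma adjusted p = 3.66e-05). Kif2b, a related depolymerase, measured 3.74, 3.84 and 3.85 before and 3.97, 3.88 and 3.89 after. All 6 values lay close to the low end of the scale, and the difference of 0.10 ± 0.10 (SE; limma adjusted p = 0.539) was not called, although each array centred on its median gave 0.33 with an adjusted p of 0.0444 in limma.

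Of the cytokinesis motors 3 fell and 1 was not called. Kif20a, which brings the chromosomal passenger complex to the central spindle, measured 10.33, 10.68 and 10.74 before and 6.91, 7.42 and 7.87 after the sort. It had the largest difference of the family, -3.18 ± 0.24 (SE, 9.09-fold, limma adjusted p = 4.54e-05). Kif23, the motor of the centralspindlin complex, measured 11.41, 11.18 and 11.34 before and 9.29, 9.20 and 9.61 after. Its sorted arrays all lay lower, by 1.95 ± 0.14 on average (SE, 3.85-fold, limma adjusted p = 3.68e-05). Kif20b, which acts late in cytokinesis, measured 9.73, 9.96 and 10.0003 before and 8.61, 9.10 and 8.74 after. At -1.08 ± 0.15 (SE, 2.12-fold, limma adjusted p = 0.00107) its difference was the smallest called among mitotic kinesins. Kif14, which works with citron kinase at the midbody, measured 4.56, 4.26 and 4.18 before and 4.03, 4.16 and 3.98 after. The groups did not overlap, yet -0.27 ± 0.13 (SE; limma adjusted p = 0.174) was not called.

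**Figure D2:**
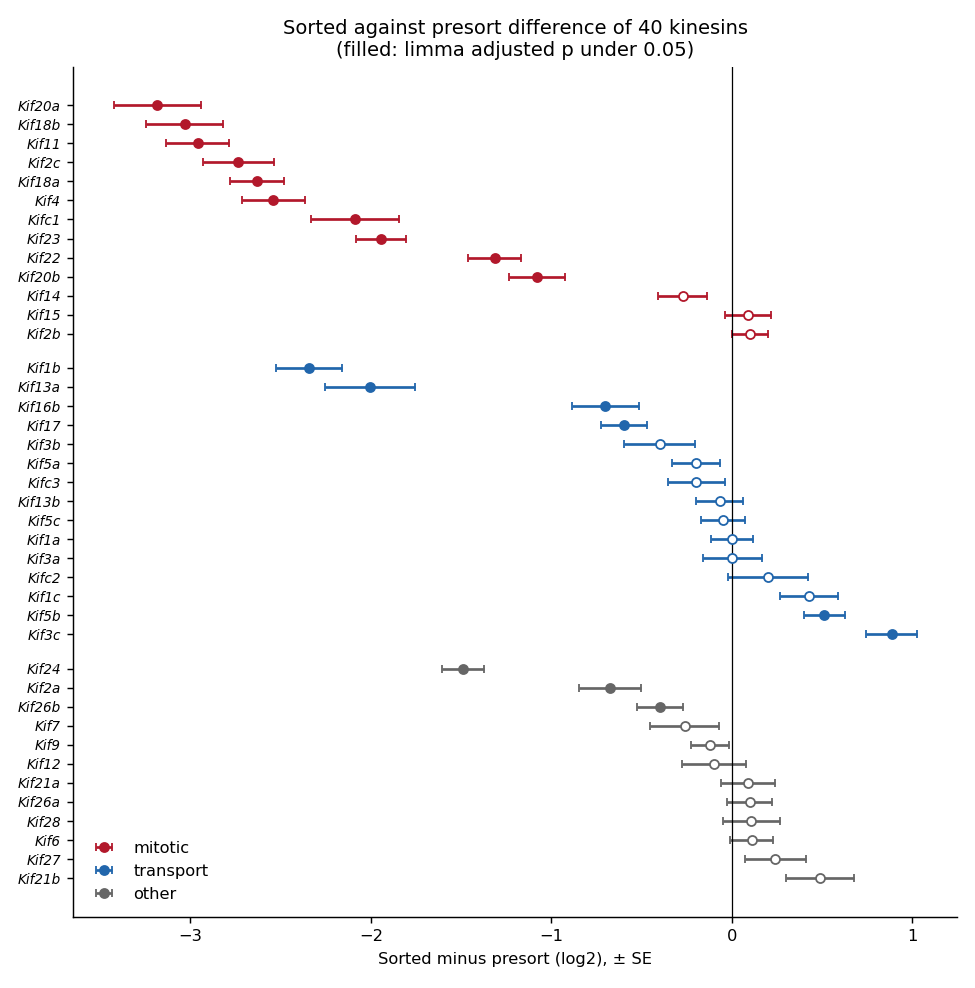
Sorted minus presort difference (log2) of all 40 kinesins with its standard error from limma; filled points have an adjusted p under 0.05 over all 18193 genes. In the mitotic class 10 of 13 points are filled and all lie left of 0, while the transport class has 4 filled points left and 2 right of 0.

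The size of the mitotic difference varied between pools. Medians over the 13 kinesins were -2.64, -1.997 and -1.73 in pools 1, 2 and 3, and 11 of the 13 had their largest difference by size in pool 1. These include Kif14 and Kif2b, which were not called, and for Kif2b the pool 1 value was a rise of 0.22. Sorted replicate 1, the array with the largest Actb end difference, was the lowest sorted array for 10 of the 13, among them the uncalled Kif15. The shares of all genes with these orders were not counted. Leaving out that array gave 10 mitotic kinesins called lower and a median of -1.91. Adding the Actb end difference to the model gave 10 called and a median of -1.86. Every sorted array had a larger Actb end difference than every presort array. These fits therefore cannot tell RNA quality apart from the sort.

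Markers of marrow cell types also differed between sorted and presort samples, and some lists shared an order of pools while others did not. Across all genes 18.1% were called lower and 14.5% higher. Erythroid markers were lower for 9 of 9 measured (median -2.57; pools -3.04, -2.82 and -2.11; Alas2 -1.16 and Tfrc -0.60), with summed linear intensities of 65601 to 68636 in presort and 17926 to 30480 in sorted samples. Neutrophil markers were lower for 11 of 11 (median -2.11; pools -2.08, -1.55 and -2.78; Ngp -0.69 and S100a8 -0.81; sums of 208136 to 219578 and 58254 to 109389). Monocyte and macrophage markers were lower for 9 of 9 (median -2.88; pools -3.07, -2.18 and -2.68; Lyz2 -1.83 and Csf1r -2.79; sums of 39789 to 45018 and 6169 to 12904). B cell markers were higher for 9 of 9 (median 2.35; pools 1.85, 2.47 and 2.98; Cd79b 2.57 and Ms4a1 2.27; sums of 10469 to 21626 and 71775 to 81195). B progenitor markers were higher for 5 of 8 and lower for 1 (median 2.12; pools 1.29, 2.22 and 2.62; Sox4 2.72, Rag1 2.75 and Igll1 -0.84; sums of 11173 to 19815 and 45850 to 54073). The uncalled B progenitor markers, Vpreb1 (-0.77) and Dntt (-0.79), lay below 0 like Igll1, so the list did not rise as a whole. In pool 3, however, Vpreb1, Igll1 and Dntt were at 0.14, 0.0018 and -0.04. The Igll1 call was also lost under 9 of 17 alternative fits and reversed under 1. Ngp and S100a8, the brightest neutrophil markers, lay near the top of the scale, with presort means of 15.07 and 15.01. Their differences were the smallest of that list, which ran to -3.49 for Mmp9. The mitotic median and the erythroid median were largest by size in pool 1 and smallest in pool 3. The monocyte and macrophage median was largest by size in pool 1 and smallest in pool 2. The neutrophil median was largest by size in pool 3 and smallest in pool 2. B cell and B progenitor medians were largest in pool 3 and smallest in pool 1. These orders rest on 3 pools, and their cause was not tested.

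Shorter marker lists were lower in part. Megakaryocyte markers were lower for 3 of 5 (median -1.69; Itga2b -1.30, Gp9 -1.35 and Gp1bb -2.02, with Pf4 at -1.69 not called). Progenitor markers were lower for 4 of 6 (median -1.06; Kit -3.28, Cd34 -3.51, Flt3 -0.80 and Gata2 -1.32), and T and natural killer cell markers for 1 of 6 (median -0.79; Ncr1 -0.67, with Gzma at -1.29 and Cd3d at -1.30 both not called), the last a share near the 18.1% of all genes called lower. Array intensities have no true 0, so no marker could be scored as undetected. The part of these cell types and of RNA quality in the kinesin differences was not tested.

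Genes that act beside the mitotic kinesins were lower too, where 18.1% of all genes were called lower and 14.5% higher. Of 25 measured spindle and cytokinesis partners 25 fell and 0 rose (median -2.51), among them Birc5 (-3.12) of the chromosomal passenger complex, Anln (-3.09), the scaffold anillin, Spag5 (-3.06), the spindle protein astrin, and Tpx2 (-2.98), which brings Kif11 to the spindle. All 20 measured S phase genes fell (median -1.93), with Tk1 (-3.11), Cdc6 (-2.97), Ccne2 (-2.74) and Prim1 (-2.25) as the largest. Of 14 regulators of mitotic genes 6 fell and 1 rose (median -0.64). Mybl2 (-2.56), Tfdp1 (-2.41), Lin54 (-1.59) and E2f1 (-1.49) were the largest falls, and Lin52 (0.78) rose. Of 13 tubulins 7 fell and 2 rose (median -1.14), with Tuba8 at -2.34, Tubb4b at -1.80 and Tubb5 at -1.56. Tubb2b rose by 3.24 and Tuba1a by 0.82. The list holds alpha and beta tubulins, the subunits of the track itself. It also holds the gamma tubulins Tubg1 (-1.14, called lower) and Tubg2 (0.03, not called), which are not. Mitotic motors outside the symbol rule were all called lower in limma: Cenpe by -2.58 ± 0.17, Kifc5b by -1.003 ± 0.17 and Stard9 by -0.77 ± 0.10 (SE).

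Mitotic genes often share promoter letters known as the cell cycle genes homology region (CHR), TTTGAA, near a CCAAT box. Both were searched on both strands in RefSeq windows of 300 bases, 250 before the start site and 50 from it, on build GRCm38.p6. Windows were found for 32 of the 40 kinesins. For 7 mitotic kinesins and 2 transport kinesins the 110 bases before the start and the first 10 from it are printed in the direction of transcription, to show where the letters lay. All 7 mitotic stretches printed hold CHR letters, and the 2 transport stretches hold neither CHR nor CCAAT letters, so they do not stand for their classes. Capitals mark TTTGAA or, from the opposite strand, TTCAAA, and CCAAT or ATTGG. Kif15, whose difference was not called, is shown beside Kif11 because its TTCAAA lay at the same distance from the start.
Kif11, chr19:37376272-37376391, plus strand: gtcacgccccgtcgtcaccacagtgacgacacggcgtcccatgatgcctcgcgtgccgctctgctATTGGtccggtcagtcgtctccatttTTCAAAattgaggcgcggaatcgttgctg
Kif15, chr9:122950971-122951090, plus strand: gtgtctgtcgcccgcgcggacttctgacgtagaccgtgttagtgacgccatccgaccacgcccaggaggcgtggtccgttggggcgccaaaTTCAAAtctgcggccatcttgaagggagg
Kifc1, chr17:33890624-33890743, minus strand: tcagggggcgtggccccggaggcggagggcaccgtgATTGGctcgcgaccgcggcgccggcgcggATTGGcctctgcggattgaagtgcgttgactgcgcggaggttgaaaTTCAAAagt
Kif18b, chr11:102925115-102925234, minus strand: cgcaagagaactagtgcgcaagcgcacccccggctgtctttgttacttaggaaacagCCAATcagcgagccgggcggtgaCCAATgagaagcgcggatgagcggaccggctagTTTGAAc
Kif22, chr7:127042411-127042530, minus strand: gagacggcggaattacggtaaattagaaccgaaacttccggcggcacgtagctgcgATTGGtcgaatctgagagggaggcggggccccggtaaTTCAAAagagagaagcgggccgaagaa
Kif2c, chr4:117178763-117178882, minus strand: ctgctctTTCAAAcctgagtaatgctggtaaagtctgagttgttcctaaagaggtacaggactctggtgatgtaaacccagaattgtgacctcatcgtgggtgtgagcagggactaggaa
Kif23, chr9:61946790-61946909, minus strand: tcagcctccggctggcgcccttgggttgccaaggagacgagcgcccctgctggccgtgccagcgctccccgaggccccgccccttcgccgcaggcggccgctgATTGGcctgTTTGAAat
Kif3c, chr12:3365022-3365141, plus strand: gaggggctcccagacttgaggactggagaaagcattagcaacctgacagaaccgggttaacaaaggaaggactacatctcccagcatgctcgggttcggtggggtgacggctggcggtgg
Kif13a, chr13:46929709-46929828, minus strand: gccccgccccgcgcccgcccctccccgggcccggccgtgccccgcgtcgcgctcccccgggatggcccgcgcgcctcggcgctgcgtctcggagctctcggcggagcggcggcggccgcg

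The CHR letters stood in 10 of 12 mitotic kinesin windows (83.3%) and in 17.9% of all 32851 windows. They stood in 8 of the 9 windows of mitotic kinesins called lower, with Kif18a as the exception, and also in those of Kif14 and Kif15, which were not called. Counted from the start site, they began at -19 in Kif11, at -19 and -234 in Kif15, and at -17 and -215 in Kif22. They began at 2 in Kifc1, 3 in Kif23, 4 in Kif18b, 8 and 14 in Kif20b, and 20 in Kif4. In Kif2c and Kif14 they lay farther upstream, at -103 and -228. Of 12 transport windows from 10 genes 1 held them (8.33%), the window of a Kif1a start, and of 12 windows of other kinesins 2 (16.7%), those of Kif26b and Kif27. CHR letters together with a CCAAT box stood in 7 mitotic windows (58.3%), in 0 transport windows, in the same 2 windows of other kinesins (16.7%) and in 6.95% of all windows. A CCAAT box, with or without CHR letters, stood in 66.7% of mitotic, 33.3% of transport, 33.3% of other kinesin and 37.4% of all windows. The E2F letters TTCCCGCC stood in 0 mitotic and 0 transport windows and in 2.19% of all. Of 12 windows of other kinesins 1 held them (8.33%), that of Kif6. These are matches of letters, with no measurement of binding. Kif13a and Kif3c, both called and in opposite directions, had neither CHR nor CCAAT letters in the window. The same held for Kif18a, a mitotic kinesin called lower. Kif1b, the transport kinesin with the largest fall, had 2 CCAAT boxes in each of its windows and no CHR letters. Kif24, called lower among the other kinesins, had 4 CCAAT boxes and no CHR letters.

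The counts for transport kinesins lay near those of all genes. Of the 15 measured 4 fell, 2 rose and 9 were not called, beside 18.1% of all genes called lower and 14.5% higher, and their median difference was -0.07, or 0.16 with each array centred on its median. Every sorted array lay below every presort array for 4 of them and above for 3, which held for 23.6% and 20.9% of all genes. The mitotic median less the transport median was -2.49, -1.61 and -1.79 in pools 1, 2 and 3, so that the mitotic class was lower in each pool.

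**Figure D3:**
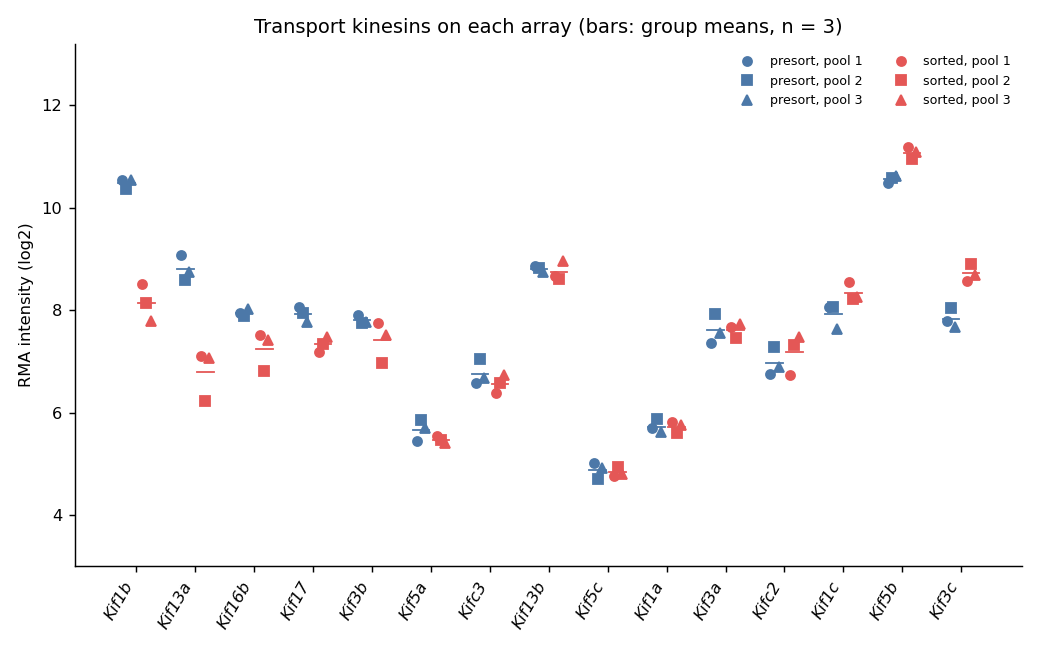
RMA intensity (log2) of the 15 transport kinesins on each array, drawn as for the mitotic class, with bars at group means (n = 3). Kif1b and Kif13a at the left have all sorted points at or below 8.51, while Kif5b and Kif3c at the right have all sorted points above the presort ones.

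Kif1b and Kif13a had the largest falls among transport kinesins. Kif1b, which carries mitochondria and synaptic vesicle precursors, measured 10.54, 10.37 and 10.55 before and 8.51, 8.15 and 7.78 after the sort. Its difference of -2.34 ± 0.18 (SE, 5.07-fold, limma adjusted p = 5.08e-05) was widest in pool 3, at -2.77, where the mitotic median was narrowest. Kif13a, which moves endosomal and receptor vesicles, measured 9.08, 8.59 and 8.74 before and 7.10, 6.22 and 7.06 after. The lowest array was sorted replicate 2, and Kif13a fell by 2.01 ± 0.25 (SE, 4.02-fold, limma adjusted p = 0.000517). Smaller falls were called for Kif16b, a motor of early endosomes, and Kif17, a motor of dendritic and ciliary cargo. Kif16b measured 7.94, 7.89 and 8.02 before and 7.51, 6.82 and 7.42 after, a difference of -0.70 ± 0.19 (SE; limma adjusted p = 0.0209) whose call was lost under 9 of 17 alternatives. Kif17 measured 8.06, 7.95 and 7.78 before and 7.18, 7.35 and 7.47 after, a difference of -0.60 ± 0.13 (SE; limma adjusted p = 0.00834) whose call was lost under 3.

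Kif3c and Kif5b rose. Kif3c, a partner of Kif3a in the heterodimeric kinesin-2 motor, measured 7.80, 8.04 and 7.66 before and 8.58, 8.90 and 8.68 after the sort. All sorted arrays of Kif3c lay above all presort ones, by 0.88 ± 0.14 on average (SE, 1.85-fold, limma adjusted p = 0.00189), and its call held under all 17 alternatives. A second, dimmer Kif3c probe set gave 0.20 and was not called. Kif5b, the widely expressed heavy chain of conventional kinesin, measured 10.48, 10.58 and 10.63 before and 11.19, 10.95 and 11.10 after. It rose by 0.51 ± 0.11 (SE, 1.43-fold, limma adjusted p = 0.00943), a call lost under 4 alternatives, with 0.37 and limma adjusted p = 0.0888 for the mean of its probe sets. Kif13b measured 8.86, 8.84 and 8.75 before and 8.67, 8.60 and 8.97 after. Its groups overlapped, and -0.07 ± 0.13 (SE; limma adjusted p = 0.761) was not called.

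The remaining transport kinesins were not called. Kif1c, a vesicle motor, had all sorted arrays above all presort arrays and a difference of 0.43 ± 0.16 (SE; limma adjusted p = 0.0805), and passed at 0.0482 with the replicate number as a block. Kif3a and Kif3b, which form the main kinesin-2 motor of cilia, gave 0.00 ± 0.16 and -0.40 ± 0.20 (SE). Kif3b was called lower in limma without sorted replicate 1 (-0.57, adjusted p = 0.0428) and with the Actb end difference in the model (-0.72, adjusted p = 0.0479), while its differences with 1 array or pool left out ran from -0.57 to -0.18. The neuronal heavy chains Kif5a and Kif5c gave -0.20 and -0.05, and Kif1a, a motor of synaptic vesicle precursors, gave -0.00. The minus-end motors Kifc2 and Kifc3 gave 0.20 and -0.20.

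Of 19 measured genes that link transport kinesins to their cargo 8 rose and 1 fell (median 0.36), beside 14.5% and 18.1% of all genes. The largest called were Klc3 (2.06 ± 0.21 SE), a light chain of conventional kinesin, Trak2 (-1.15) and Trak1 (1.01), which link the motor to mitochondria, and the light chain Klc1 (0.80). Kifap3, the cargo subunit of kinesin-2, gave -0.03 and was not called. Under the alternatives the count of partners that rose ran from 2 to 12. Dynein with dynactin is the motor complex of the opposite direction. Of 21 measured genes of dynein, dynactin and their adaptors or regulators 2 were higher and 2 lower (median -0.04), beside 14.5% and 18.1% of all genes. The called genes were the dynein chains Dynll2 at -0.76 and Dynlt3 at 0.76, and, outside the complex itself, Bicd2 at 0.69 and Ndel1 at -0.65.

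**Figure D4:**
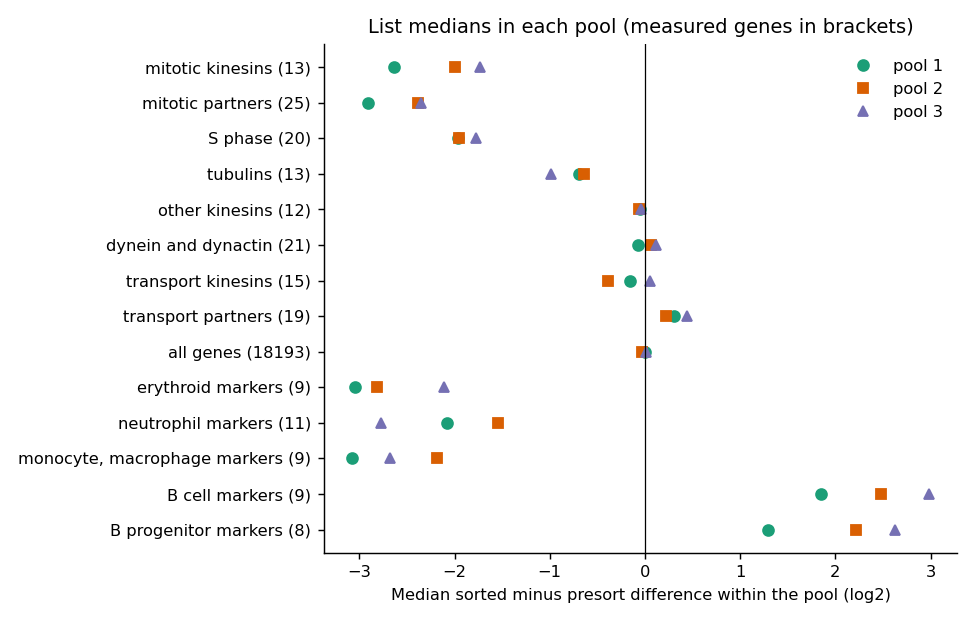
Median sorted minus presort difference (log2) within each pool for the kinesin classes, their partner lists, all genes and cell type markers, with the number of measured genes in brackets. Mitotic kinesins sit at -2.64, -1.997 and -1.73, near mitotic partners and S phase genes, while transport kinesins sit between -0.38 and 0.06.

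Of the 12 other kinesins 3 fell and 0 rose (median -0.01), beside 18.1% of all genes called lower and 14.5% higher. Kif24, a depolymerase of centrioles that restrains cilium formation, measured 8.84, 8.64 and 8.55 before and 7.20, 7.15 and 7.21 after the sort. The sorted arrays of Kif24 had an SD of 0.03 and all lay below the presort ones, and it fell by 1.49 ± 0.12 (SE, 2.81-fold, limma adjusted p = 4.89e-05), a call held under all 17 alternatives. Kif2a, a depolymerase of spindle poles and neurites, measured 10.82, 10.62 and 10.82 before and 10.40, 9.76 and 10.07 after. The groups did not overlap, at -0.67 ± 0.17 (SE, 1.59-fold, limma adjusted p = 0.0181), and the call was lost under 6 alternatives. Kif26b, which binds microtubules with little motor activity, measured 5.07, 4.90 and 4.78 before and 4.50, 4.41 and 4.66 after. Its -0.40 ± 0.13 (SE, 1.32-fold, limma adjusted p = 0.044) lost its call under 12 of 16 alternatives, among them the replicate block (0.0596).

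Kif21b, a motor that also slows microtubule growth, measured 10.71, 9.997 and 10.19 before and 10.87, 10.66 and 10.83 after. Its groups overlapped through presort replicate 1, and the difference of 0.49 ± 0.19 (SE; limma adjusted p = 0.0869) was called at 0.0353 with the replicate block. Kif7, a regulator of Hedgehog signalling in cilia, measured 6.37, 6.74 and 6.59 before and 5.91, 6.42 and 6.58 after, and -0.26 ± 0.19 (SE; limma adjusted p = 0.377) was not called. Kif6, Kif9, Kif12, Kif21a, Kif26a, Kif27 and Kif28 lay between -0.12 and 0.24, and none was called.

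All probe sets of the family were compared too, since most kinesins have several. Of 26 mitotic probe sets 20 were lower and 0 higher, of 54 transport probe sets 14 and 2, and of 23 others 5 and 0, while 15.3% of all 34945 probe sets were called lower and 13.5% higher. The 15 mitotic probe sets with a mean at or above the median of all probe sets were all lower (median -2.63), and of the 11 dimmer ones 5 were (median -0.53). Kif18a had a second, dim probe set at -0.13 that was not called. Kif2c had 4, from -2.75 to -0.53, and Kif23 had 3, from -2.53 to -1.17. Of 7 Kif1b probe sets 6 were lower and 1, at -0.17, was not called, while all 5 for Kif13a were lower, from -2.01 to -0.84. For Kif5b 1 of 6 was higher, and for Kif3c 1 of 2.

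**Figure D5:**
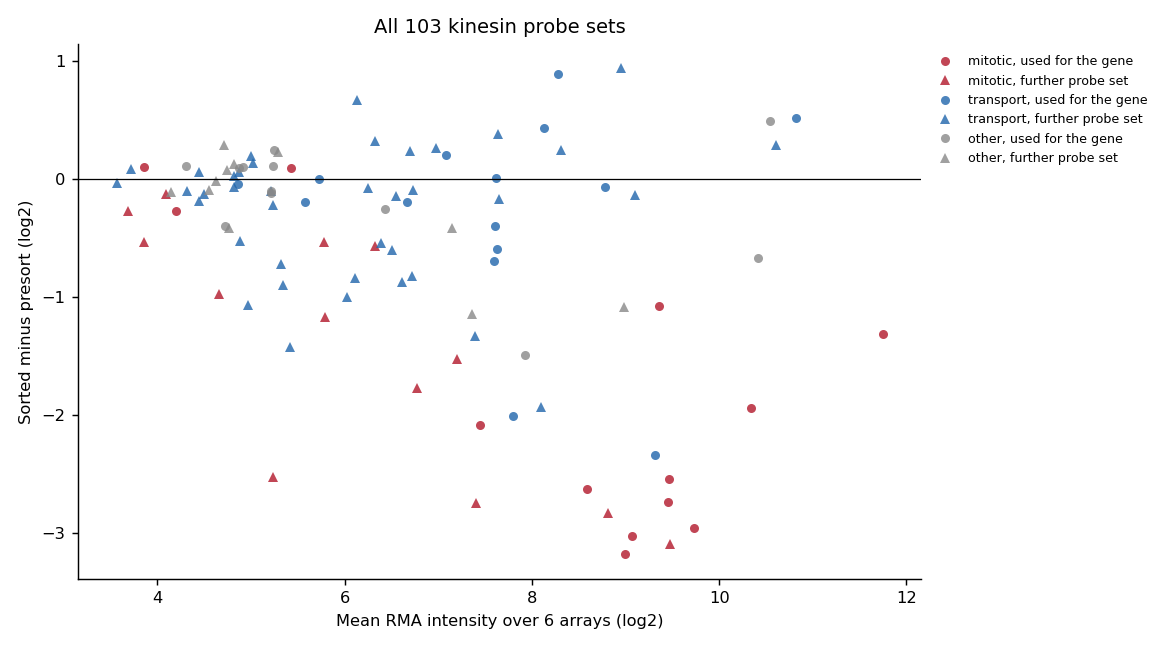
Sorted minus presort difference (log2) of all 103 kinesin probe sets against their mean RMA intensity over 6 arrays (log2); circles stand for the gene in the text and triangles are its further probe sets. Mitotic probe sets brighter than about 6 lie below 0, whereas transport probe sets spread on both sides of it.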

How the data were processed

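RNA of 3 presort and 3 sorted samples was labelled by 3' in vitro transcription, per the labels' protocols. The deposited values are linear intensities from RMA, which the submitters' processing notes name as the authors' method. Its version is not given in the sources used here. RMA with quantile normalization equalizes arrays, so a change in total RNA per cell leaves no trace. Intensities ran from 9.71 to 38492.1. The small number of arrays is among the limits on precision, and arrays have no read depth.

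Log2 was taken with no pseudocount or filter. Of 45101 probe sets, 64 controls, 932 with several symbols (1 names a kinesin) and 9160 with none were left out. Symbols come from the platform annotation. Where a gene had several probe sets (9010 of 18193 genes), the brightest on average was used. The test was limma 3.58.1 under R 4.3.3, with lmFit and two-sided eBayes, no block, and Benjamini-Hochberg adjustment over all genes at a threshold of 0.05. Figures used matplotlib 3.10.9 in Python 3.11.15. The fit was tested on simulated data that kept each gene's mean and average variance within groups. Both groups were given equal variance and independent normal noise, with no pool effect. Rates in the real arrays, where 32.6% of genes were called, may differ from those of the simulation. With 200 of 18193 genes changed, 63% of changes of 1 and 90% of changes of 2 (log2) were recovered, with 9 false calls.

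Members and lists were chosen with earlier results of these data known. Every kinesin is named. Values by array are given for each mitotic kinesin and for transport or other kinesins that were called or among the 4 brightest of their list. Up to 4 members with the largest called difference, and those called against the majority, are named for a partner list, and the 2 brightest for a marker list. Igll1, Vpreb1, Dntt, Gp9, Gp1bb, Kit, Cd34, Ncr1, Kifap3, Cenpe, Kifc5b and Stard9 were named after their values were seen. Kifc5b was meant for the mitotic list but does not match the symbol rule, so it stands apart with Cenpe and Stard9. Motif letters were chosen after the expression results, and the stretch printed after the motif positions were seen.

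The labels tie both samples of a number to a shared pool, which pairs them. Their deviations from group means correlated across genes at 0.39, 0.20 and -0.03. Alternatives were the replicate block, averaging over probe sets, leaving out those named _x_at or _s_at, median centring, quantile normalization over named genes, leaving out the dimmest 33.3% of genes, a trended robust prior, a beta-actin 3' to 5' covariate, and leaving out each array or pool. Renin itself is not reported here.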

Additional observations from a re-analysis of the deposited data

How the results depend on the processing

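The calls of the 10 mitotic kinesins held under each of 17 alternatives in which they had a value (Kifc1 has none without _x_at and _s_at probe sets). Over all kinesins, 621 of 666 values kept their side of the threshold, 34 lost a call, 11 gained one and 0 called values reversed. Among those 621, 37 uncalled values of 14 kinesins changed sign. With the replicate number as a block, which uses the pairing by pool, 2860 genes were higher and 3548 lower, 10 mitotic kinesins fell, and 1 other kinesin, Kif21b, rose. With arrays centred on their medians 5162 genes were higher, 1 mitotic kinesin (Kif2b) rose, 1 other kinesin fell and 2 rose, and the transport median was 0.16. With quantile normalization over named genes 2 transport kinesins fell. With the mean of probe sets, and with the beta-actin covariate, 1 transport kinesin rose. Without the dimmest 33.3% of genes the mitotic median was -2.59 and its difference from the transport median -2.52. Without _x_at and _s_at probe sets Igll1, a B progenitor marker, was at 0.59 and reversed.

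Leaving out 1 array or 1 pool gave 10 mitotic kinesins lower each time, with a median of -2.36 to -1.86, 2 to 5 transport kinesins lower and 1 to 2 higher, 1 to 2 other kinesins lower and 0 to 1 higher, and 1544 to 2608 genes higher. The causes were not tested. Dim probe sets limit what can be said of Kif2b, Kif14 and Kif15, since the table gives no detection calls.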
